A study of Homo sapiens with 6 samples.

Results

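The 38 genes described here encode the machinery of macroautophagy and of the lysosome: ATG8 family proteins, autophagy receptors, the complexes that start and lipidate the autophagosome, the transcription factors TFEB and TFE3, and lysosomal membrane proteins and proteases. They were chosen by name, and all 38 were found among the 58735 genes of the table. Their transcripts were counted by RNA sequencing of MDA-MB-231, a cell line from a human breast cancer that lacks hormone receptors and ERBB2 amplification, in 6 libraries. For 3 libraries the cells had received the DNAJC12 vector, called DNAJC12v in the labels, and had the genotype of DNAJC12 overexpression; for the other 3 they had received the empty vector. The DNAJC12 protein is a J-domain co-chaperone of heat shock proteins. The labels state neither the promoter of the vector, nor the time after transfection, nor whether the cells were a clone or a pool.

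In macroautophagy, a double membrane closes around cytoplasm, protein aggregates or organelles, and the autophagosome so formed fuses with a lysosome, whose proteases degrade the content. The ULK complex starts the process, the class III PI3-kinase complex marks the site, and a ubiquitin-like conjugation system attaches ATG8 proteins such as LC3 to the membrane, where receptors such as p62 tether cargo. Transcripts of this pathway are known to respond to starvation and stress, through TFEB and TFE3 among other factors, but a transcript level does not measure the flow of material through autophagy.

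The libraries held 17967283 to 18887497 counts. DNAJC12 itself had 26.2, 33.1 and 25.7 CPM (counts scaled to a common library size) in DNAJC12 replicates 1 to 3, against 0.0537, 0 and 0 with the empty vector. The markers of the line VIM, CD44, EGFR, AXL and KRT18 were present in every library, and the luminal markers ESR1, PGR and FOXA1 stayed at or under 0.266 CPM. GATA3 had 3.78 to 5.44 CPM, CDH1 2.46 to 5.11 CPM and ERBB2 61.4 to 120.7 CPM. The leukocyte and macrophage markers CD3E and CD163 were at 0, and PTPRC was at most 0.1 CPM. PECAM1, a marker of endothelium, was lower with DNAJC12 (4.58 ± 0.859 against 18.3 ± 3.94 CPM, SD, n = 3), while the other endothelial marker, VWF, was at 0.124 and 0.128 CPM on average. Libraries deviated from the others of their group by GC content. DNAJC12 replicates 1 and 2 went furthest and in opposite directions. Their median log2 differences were 0.90 and -1.09 in the fifth of genes poorest in GC, and -0.58 and 0.73 in the fifth richest in it. Empty vector replicates 1 and 2 did likewise but less (0.36 and -0.41, -0.30 and 0.27). Each library was set against the other 2 of its group, so deviations within a group depend on each other. Nothing in the labels states separate cultures for the replicates, so p-values reflect only how these samples vary among themselves, and that variation may be technical. In libraries of whole cultures, fewer cells with a transcript and less of it per cell cannot be told apart.

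Of the 38 genes, MAP1LC3B, which encodes LC3B, was the only gene called different between the groups at an adjusted p under 0.05 (edgeR, quasi-likelihood test, Benjamini-Hochberg adjustment over 14520 tested genes). That is 1 gene higher and 0 lower, against 0.585% of all tested genes called higher, 0.661% called lower and 1.25% called in either direction. At an unadjusted p under 0.05 there were 4 genes higher and 1 lower, or 13.2%, close to the 14.1% of all genes (7.25% higher and 6.86% lower). Fold changes are given on the log2 scale as DNAJC12 against empty vector. They were above 0 for 23 genes and below 0 for 15, with a median of 0.03 beside 0.05 over all genes. The 3 DNAJC12 libraries were all above the 3 empty vector libraries for MAP1LC3B, SQSTM1, ULK1 and ULK2, and all below for ATG4A. These 5 genes are 13.2% of the 38, beside 20.1% of all genes whose groups did not overlap (9.26% higher, 10.8% lower). After a correction for GC content, the order was the other way, with 12 higher and 4 lower, or 42.1% of the 38 beside 37.8% of all genes. The DESeq2 Wald test also called MAP1LC3B alone.

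**Figure D1:**
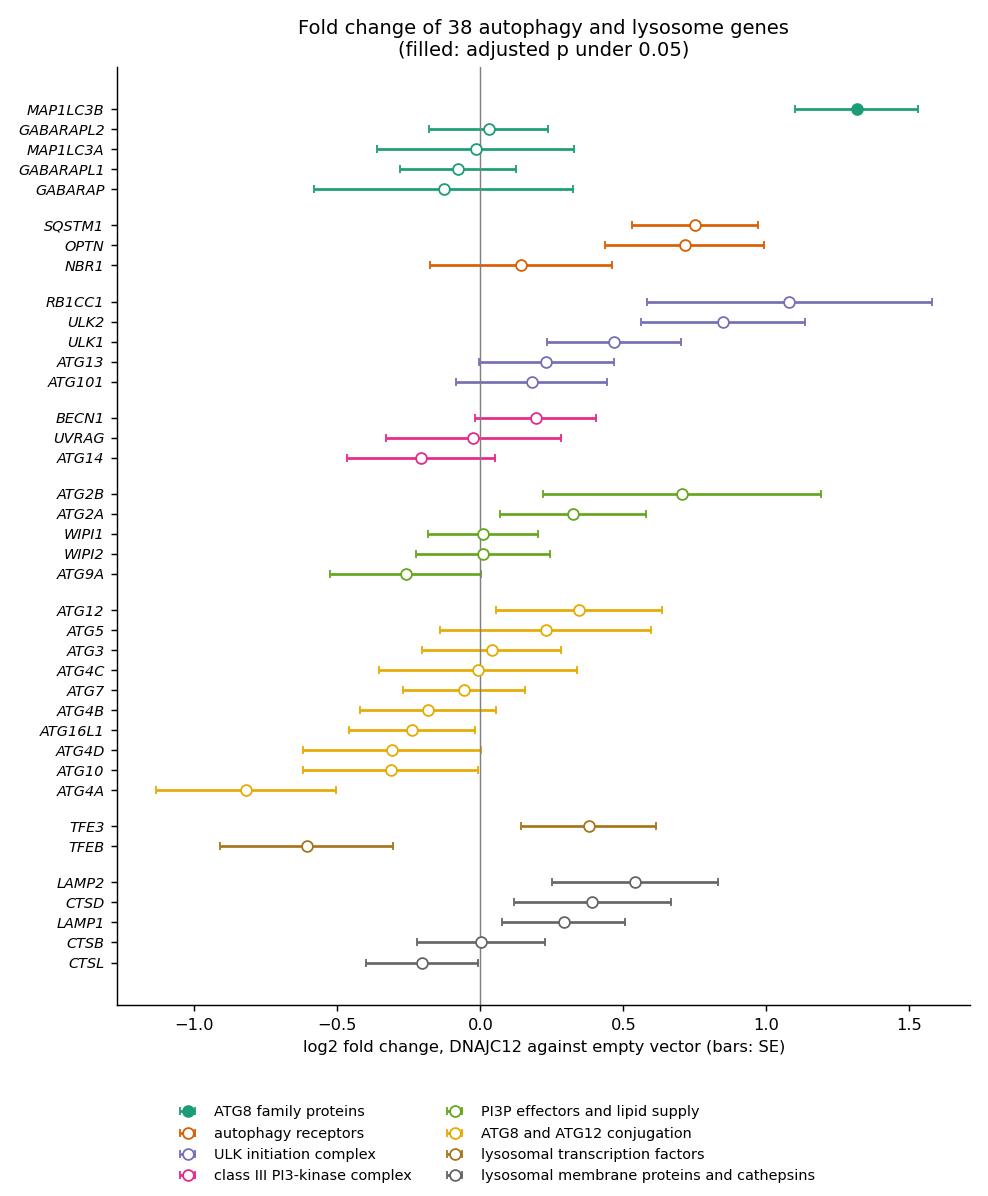
Log2 fold change of each of the 38 genes, DNAJC12 against empty vector (horizontal axis), with bars of 1 SE, grouped by role. The filled point, MAP1LC3B at 1.32, is the single gene with an adjusted p under 0.05, and the other 37 lie between -0.82 and 1.08.

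The ATG8 family proteins are the ubiquitin-like proteins that are joined to the lipid of the autophagosome, and of the 5 genes tested MAP1LC3B was the 1 called. MAP1LC3B (ENSG00000140941, GRCh38 chromosome 16, 87383995 to 87404779, plus strand) had 205.3, 159.6 and 221.7 CPM in DNAJC12 replicates 1 to 3 and 89.9, 70.6 and 75.2 CPM with the empty vector. Every DNAJC12 library was above every empty vector library, and the lowest of them was DNAJC12 replicate 2. The log2 fold change was 1.32 (SE 0.215, adjusted p = 0.0237), a 2.49-fold difference. The call was lost without DNAJC12 replicate 3 (adjusted p = 0.165) and without empty vector replicate 1, 2 or 3 (0.121, 0.164 and 0.160). With 1 of those libraries left out, 0.168% to 0.275% of all genes were called, against 1.25% with all libraries. The log2 fold change of MAP1LC3B stayed between 1.22 and 1.44 in all 18 alternative analyses.

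GABARAPL1, from the other branch of the family, had 66.3, 56.2 and 67.0 CPM with DNAJC12 and 77.1, 59.2 and 63.7 CPM with the empty vector. The groups overlapped, and the log2 fold change was -0.08 (SE 0.203). GABARAPL2 (0.03), MAP1LC3A (-0.02) and GABARAP (-0.13) were not called either. GABARAP had 577 counts over all 6 libraries, and 30.5% of its 2266 exon bases are shared with AC120057.2 on the same strand, so its level is uncertain. Without DNAJC12 replicate 2, the log2 fold change of GABARAP was -0.75.

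The start regions of MAP1LC3B, which rose, and of GABARAPL1, which was not called, are shown for comparison, with that of LAMP1, a lysosomal gene whose region carries the motif of TFEB and TFE3. Each is the 250 bases before the RefSeq start in GRCh38.p14, on the plus strand: chr16:87392086-87392335, chr12:10212627-10212876 and chr13:113296989-113297238. Capitals mark matches to the motifs searched, on either strand; in LAMP1 the first run of capitals joins an antioxidant response element on the opposite strand to an overlapping E-box.
MAP1LC3B: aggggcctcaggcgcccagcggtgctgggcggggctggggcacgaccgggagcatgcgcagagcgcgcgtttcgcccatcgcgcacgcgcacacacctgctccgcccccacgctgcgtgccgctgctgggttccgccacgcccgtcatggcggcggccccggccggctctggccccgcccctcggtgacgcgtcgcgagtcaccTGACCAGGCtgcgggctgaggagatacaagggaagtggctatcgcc
GABARAPL1: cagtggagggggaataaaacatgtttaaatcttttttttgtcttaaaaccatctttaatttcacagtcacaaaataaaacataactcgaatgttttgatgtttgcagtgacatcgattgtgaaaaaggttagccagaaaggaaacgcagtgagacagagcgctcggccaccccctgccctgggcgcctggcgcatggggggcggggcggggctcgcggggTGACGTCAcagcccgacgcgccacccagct
LAMP1: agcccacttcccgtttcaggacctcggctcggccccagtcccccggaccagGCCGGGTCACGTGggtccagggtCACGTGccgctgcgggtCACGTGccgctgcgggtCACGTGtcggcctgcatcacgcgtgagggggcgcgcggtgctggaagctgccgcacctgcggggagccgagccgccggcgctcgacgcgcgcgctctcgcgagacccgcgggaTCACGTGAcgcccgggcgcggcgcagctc
MAP1LC3B had a match to the antioxidant response element core (TGACNNNGC), the motif of NRF2, and GABARAPL1 to the cyclic AMP response element (TGACGTCA). LAMP1 had 5 copies of the E-box (CACGTG), of which the last lies inside the CLEAR core (TCACGTGA) that TFEB and TFE3 are known to bind.

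RefSeq start regions were found for 32 of the 38 genes, 40 regions in all. The E-box was in 4 of these 40 regions (10%), at ATG3, ATG14, CTSD and LAMP1, against 6.34% of all 35116 regions. The antioxidant response element core was in 5 (12.5%) against 10.9%. The CLEAR core and the cyclic AMP response element were in 1 region each, against 0.854% and 1.65%. The composite element of ATF4 (TGATGNAA) was in 0 of 40 against 3.14% of all regions. These are matches of letters in a window, and binding was not measured.

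On the FPKM scale, which corrects for the length of the gene and the depth of the library, MAP1LC3B went from 14.7 ± 1.81 to 36.4 ± 5.73 FPKM (SD, n = 3). With the empty vector, GABARAPL1 and MAP1LC3B were at like levels, since GABARAPL1 made up 34.2%, 30.0% and 31.2% of the summed FPKM of the 5 ATG8 genes and MAP1LC3B 30.7%, 27.5% and 28.3%. With DNAJC12, MAP1LC3B made up 54.1%, 45.1% and 52.9% of the sum, and GABARAPL1 22.7%, 20.7% and 20.8%. As counted, MAP1LC3B was thus the most abundant of the 5 genes in all 3 DNAJC12 libraries. In all 3 empty vector libraries MAP1LC3B was second to GABARAPL1. The shares and the sum include GABARAP, whose level is uncertain. The sum itself was 70.4, 66.4 and 77.6 FPKM with DNAJC12 and 54.5, 48.3 and 49.8 FPKM with the empty vector, and these values did not overlap. This sum includes MAP1LC3B, and the other genes had near equal means in the 2 groups. With DNAJC12 and with the empty vector, GABARAPL1 had 15.3 and 16.2 FPKM and GABARAPL2 11.1 and 10.9 FPKM. MAP1LC3A had 6.47 and 6.57 FPKM, and GABARAP 2.24 and 2.44 FPKM.

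**Figure D2:**
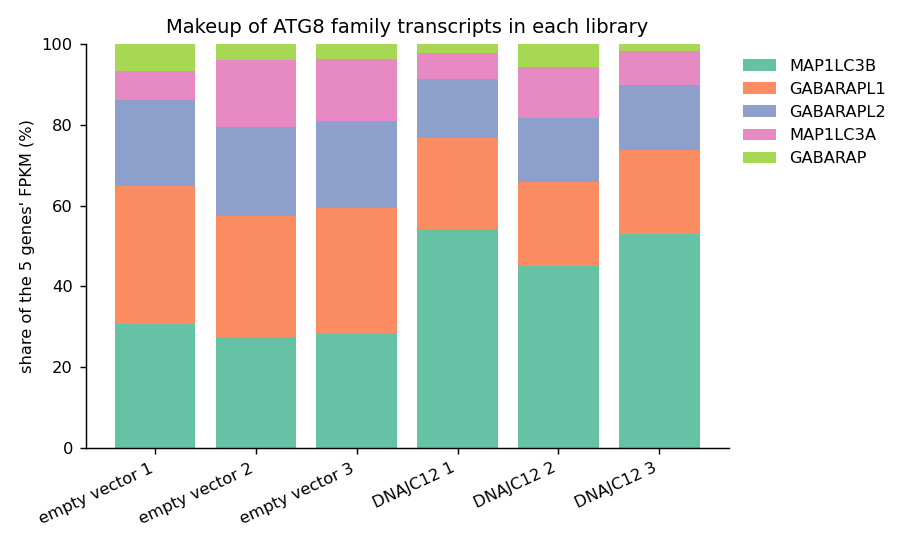
Share of each ATG8 family gene in the summed FPKM of the 5 genes (vertical axis, percent), 1 bar per library. MAP1LC3B takes 45.1% to 54.1% in the DNAJC12 libraries and 27.5% to 30.7% in those of the empty vector.

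Reads of MAP1LC3B can also match its near-identical copy MAP1LC3B2, which had 682 counts over the 6 libraries against 15223 for MAP1LC3B. MAP1LC3B2 had 9.37, 8.03 and 9.98 CPM with DNAJC12 and 2.95, 3.28 and 3.36 CPM with the empty vector. It was called higher as well (log2 fold change 1.51, SE 0.263, adjusted p = 0.0293), and how far the reads of the 2 genes were told apart is not known. That call too was lost without DNAJC12 replicate 3 and without any of the empty vector libraries (adjusted p from 0.177 to 0.201). FBXO31, which shares 150 exon bases with MAP1LC3B on the opposite strand, had a log2 fold change of 0.11.

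The autophagy receptors bind both ubiquitinated cargo and the ATG8 proteins on the membrane. SQSTM1, which encodes p62 and is among the most abundant of the 38 transcripts, had 962, 1553 and 1212 CPM in DNAJC12 replicates 1 to 3 and 679, 765 and 770 CPM with the empty vector. The groups did not overlap, and the highest value was that of DNAJC12 replicate 2. The log2 fold change of 0.75 (SE 0.220), or 1.68-fold, did not pass the adjusted test (adjusted p = 0.155). It was called in 6 of 18 alternatives, among them without DNAJC12 replicate 2 (0.56, adjusted p = 0.0188) and after GC correction (0.82, adjusted p = 0.000292). MRNIP and MGAT4B, which overlap SQSTM1 on the opposite strand, had log2 fold changes of 0.41 and 0.44, with 2661 and 35573 counts against 107828 for SQSTM1.

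OPTN, the receptor optineurin, was named after its values were seen: it had 166, 80.4 and 140 CPM with DNAJC12 and 91.6, 70.2 and 73.9 CPM with the empty vector. DNAJC12 replicates 1 and 3 were above all empty vector libraries, and DNAJC12 replicate 2 lay among them, so the groups overlapped. The log2 fold change was 0.71 (SE 0.278, adjusted p = 0.291), and 0.96 without DNAJC12 replicate 2. CCDC3, which shares 147 exon bases with OPTN on the opposite strand, had 2893 counts against 11628 for OPTN. Its log2 fold change was 0.55. NBR1, the receptor related to p62, had 184, 75.4 and 138 CPM against 143, 94.0 and 124 CPM, and a log2 fold change of 0.14. DNAJC12 replicate 2 was the lowest of its group for OPTN and the lowest of all 6 libraries for NBR1.

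**Figure D3:**
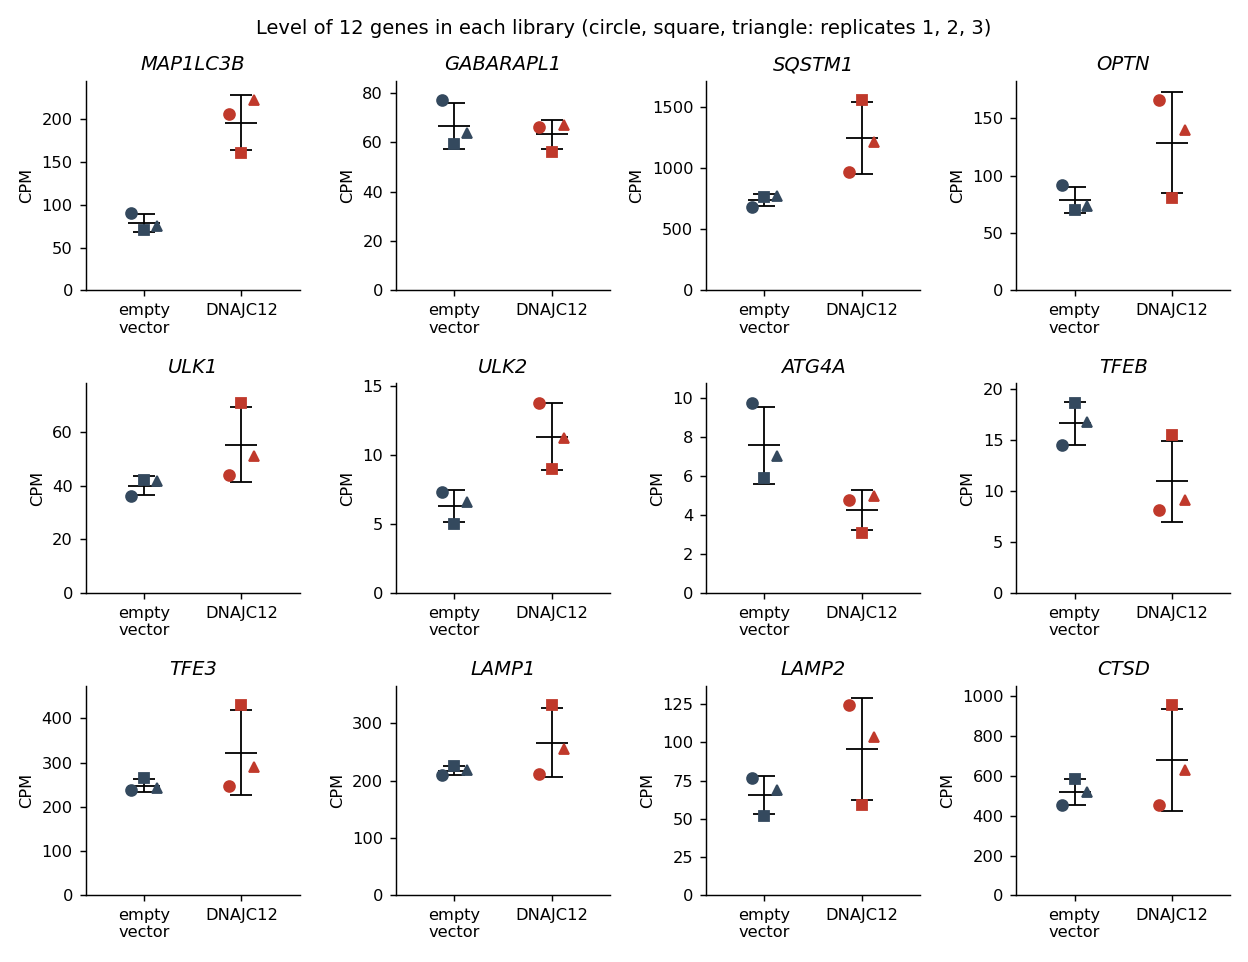
Level of 12 of the genes in CPM (vertical axes, from 0) in each library, with the mean and SD of each group of 3 libraries as black bars. The groups are apart for MAP1LC3B, SQSTM1, ULK1, ULK2 and ATG4A, and the square of DNAJC12 replicate 2 is the highest or the lowest of its group in all 12 genes.

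All 5 genes of the ULK initiation complex had a fold change above 0, as had 54.9% of all genes, and none of the 5 was called. The kinase genes ULK1 and ULK2 did not overlap between the groups. ULK2 had 13.8, 8.98 and 11.2 CPM with DNAJC12 and 7.30, 5.01 and 6.61 CPM with the empty vector (log2 fold change 0.85, SE 0.286, adjusted p = 0.213). ULK1 had 43.9, 70.9 and 51.0 CPM against 36.1, 42.1 and 41.8 CPM (0.47, SE 0.233, adjusted p = 0.414), and without DNAJC12 replicate 2 its log2 fold change was 0.25. The replicates numbered 2 were the lowest of their groups for ULK2 and the highest for ULK1.

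The scaffold gene RB1CC1, which encodes FIP200, had the largest fold change of the complex (1.08, SE 0.497, adjusted p = 0.372, and 1.41 without DNAJC12 replicate 2), but at low levels of 8.52, 2.40 and 4.44 CPM against 1.72, 1.72 and 3.84 CPM. DNAJC12 replicate 2 lay below empty vector replicate 3. ATG13, the most abundant gene of the complex at 19.6 FPKM, had 115.5, 196 and 136.9 CPM with DNAJC12 and 134, 134.2 and 113.8 CPM with the empty vector (0.23). Its partner ATG101 had a log2 fold change of 0.18. Without DNAJC12 replicate 2, ATG13 was at -0.01 and ATG101 at -0.08.

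The class III PI3-kinase complex, represented by 3 of its regulatory subunits, had no called gene and no gene whose groups were apart. BECN1, the beclin 1 scaffold, had 63.9, 45.0 and 61.0 CPM with DNAJC12 and 52.6, 46.1 and 49.99 CPM with the empty vector (0.19). DNAJC12 replicate 2 was the lowest of all 6 libraries. PSME3, which covers 4.68% of the exon bases of BECN1 on the opposite strand, had 27968 counts against 5902 for BECN1. Its log2 fold change was 0.09, and the level of BECN1 is uncertain. ATG14, the subunit that directs the complex to autophagosomes, had -0.21, and UVRAG, the subunit of the endosomal form, had -0.02.

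Among the genes that act on the lipid PI3P or supply membrane, 0 of 5 were called. WIPI2, a PI3P-binding protein that recruits the conjugation machinery, had 141, 238 and 163 CPM with DNAJC12 and 166, 193 and 180 CPM with the empty vector, a log2 fold change of 0.01. WIPI1, its relative, was also at 0.01. The lipid transfer genes ATG2A (0.32, SE 0.255, and 0.05 without DNAJC12 replicate 2) and ATG2B (0.71, SE 0.486, and 1.08) were above 0, and ATG9A, the membrane scramblase carried on vesicles, was below (-0.26, SE 0.263, and -0.58). Direction was not fixed for WIPI1 and WIPI2, whose sign turned in 4 and 8 of the 18 alternatives.

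Of the 10 genes of ATG8 and ATG12 conjugation, 7 had a fold change below 0, the median was -0.12 and 0 were called. ATG4A, a protease that trims ATG8 proteins before lipidation, had 4.76, 3.10 and 4.96 CPM with DNAJC12 and 9.77, 5.90 and 7.03 CPM with the empty vector. Every DNAJC12 library was below every empty vector library, yet the log2 fold change of -0.82 (SE 0.314) did not pass adjustment (adjusted p = 0.281). Its paralogs ATG4B (-0.18), ATG4C (-0.01) and ATG4D (-0.31) were not called.

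ATG4D was the most abundant gene of this group, with 30.3, 69.4 and 35.9 CPM with DNAJC12 and 51.2, 64.1 and 52.4 CPM with the empty vector. DNAJC12 replicates 1 and 3 were below all empty vector libraries and DNAJC12 replicate 2 above all of them, and without that library the log2 fold change was -0.76. The E1-like enzyme ATG7 (-0.06), the E2-like enzymes ATG3 (0.04) and ATG10 (-0.31), and the conjugate genes ATG5 (0.23), ATG12 (0.34) and ATG16L1 (-0.24) completed the group. RPS23, which overlaps ATG10, had 52821 counts against 465 for ATG10, so the level of ATG10 is uncertain. Genes on the opposite strand also overlap ATG4D (KRI1, 4665 counts against 5479) and ATG7 (VGLL4, 2921 against 3947). The same holds for ATG4B (THAP4, 8945 against 6219), ATG12 (AP3S1, 6291 against 2915) and ATG3 (SLC35A5, 1881 against 3059). The levels of these genes are uncertain too.

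The 2 transcription factors of the lysosomal gene network had fold changes of opposite sign. TFEB had 8.17, 15.5 and 9.09 CPM with DNAJC12 and 14.4, 18.6 and 16.7 CPM with the empty vector. DNAJC12 replicate 2 lay above the lowest empty vector library and the other 2 were below all of them (log2 fold change -0.61, SE 0.302, adjusted p = 0.413). TFE3 had 248, 430 and 290 CPM against 237, 265 and 242 CPM, with DNAJC12 replicate 1 among the empty vector libraries (0.38, SE 0.237, adjusted p = 0.523). Without DNAJC12 replicate 2 the log2 fold change was -0.94 for TFEB and 0.12 for TFE3.

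On the FPKM scale TFE3 was far more abundant than TFEB, at 66.1 against 2.42 FPKM over all libraries. TFEB made up 2.44%, 2.66% and 2.32% of their summed FPKM with DNAJC12 and 4.41%, 5.06% and 4.99% with the empty vector. The shares did not overlap, while the level of each gene was highest of its group in DNAJC12 replicate 2. This share was computed after the values were seen.

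Of the 5 genes for lysosomal membrane proteins and cathepsins, 4 had a fold change above 0 and 0 were called. CTSD, the aspartic protease cathepsin D and the most abundant of the 38 genes at 190 FPKM, had 452, 955 and 630 CPM with DNAJC12 and 452, 584 and 516 CPM with the empty vector. DNAJC12 replicates 2 and 3 were above the empty vector libraries and DNAJC12 replicate 1 among them (0.39, SE 0.275, adjusted p = 0.573), and without DNAJC12 replicate 2 the log2 fold change was 0.06. AC068580.4, which covers 41.7% of the exon bases of CTSD on the same strand, had 99 counts against 64799 for CTSD. The cysteine protease genes CTSB (0.00) and CTSL (-0.20) were not called, and CTSB changed sign in 11 of the 18 alternatives.

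LAMP1 and LAMP2 encode the main glycoproteins of the lysosomal membrane. LAMP1 had 212, 332 and 256 CPM with DNAJC12 and 210, 226 and 218 CPM with the empty vector (0.29, SE 0.215). LAMP2 had 124, 59.0 and 103 CPM against 76.5, 51.8 and 68.7 CPM (0.54, SE 0.291). DNAJC12 replicate 2 was the highest library for LAMP1 and the lowest of its group for LAMP2, and without it the log2 fold changes were 0.10 and 0.79.

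Across the 38 genes, the deviation of DNAJC12 replicate 2 moved with GC content. For each gene, its log2 CPM in that library was set against the mean of DNAJC12 replicates 1 and 3. The difference had a median of -0.71 in the 19 genes of lower GC content, 16 of them below 0, and of 0.64 in the 19 genes of higher GC content, 16 of them above 0. Its correlation with GC content across the 38 genes was r = 0.838 and rho = 0.876, beside 0.783 and 0.814 over 14518 genes; the points share 1 library. In empty vector replicate 2 the same r was 0.733, and in DNAJC12 replicate 1 it was -0.852. Each library was set against the other 2 of its group, so r of DNAJC12 replicate 1 depends in part on replicate 2.

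Genes at either end of this range show it in single values. RB1CC1, with 40.4% GC, was at 2.40 CPM in DNAJC12 replicate 2 against 8.52 and 4.44 CPM in the other replicates, and CTSD, with 63.4% GC, at 955 CPM against 452 and 630 CPM. MAP1LC3B lies in the middle, at 50.3% GC.

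**Figure D4:**
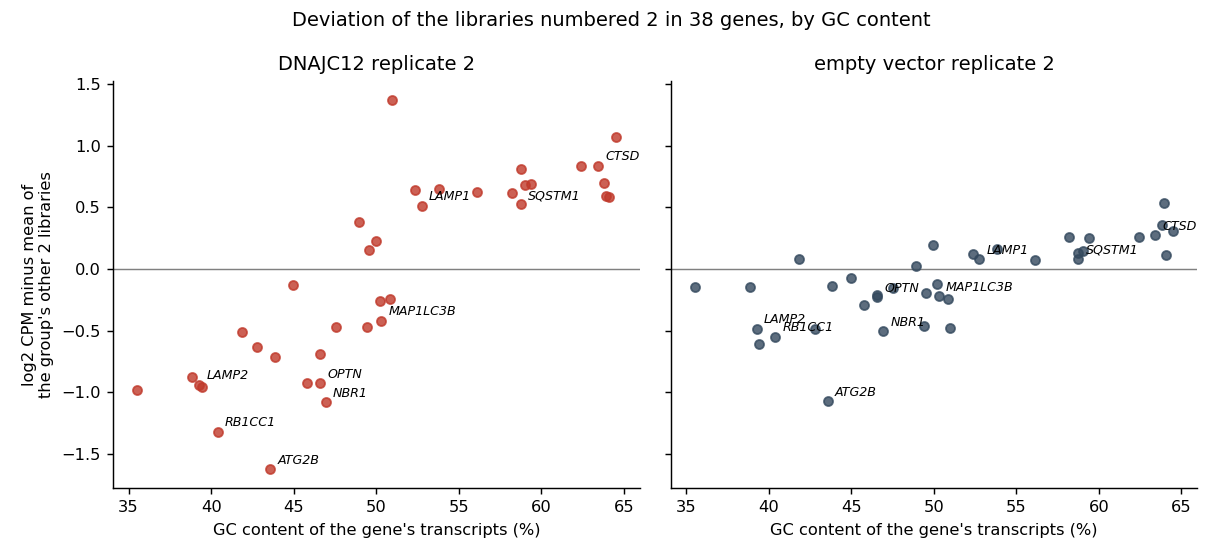
Deviation of DNAJC12 replicate 2 (left) and empty vector replicate 2 (right) from the mean of the other libraries of their group (vertical axis, log2 CPM) against the GC content of each gene's transcripts (horizontal axis, percent), 1 point for each of the 38 genes. Points fall from CTSD on the GC-rich side to RB1CC1 and ATG2B on the GC-poor side, with a wider range in DNAJC12 replicate 2.

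Counts of 2 members of like GC content can also be set against each other within a library; the pairs were chosen after the values were seen. MAP1LC3B had 3.10, 2.84 and 3.31 counts per count of GABARAPL1 with DNAJC12, and 1.17, 1.19 and 1.18 with the empty vector. SQSTM1 had 26.1, 21.6 and 26.6 counts per count of ATG9A with DNAJC12, and 11.0, 11.7 and 13.3 with the empty vector; AC068946.2 covers 38.8% of the exon bases of ATG9A on the same strand and had 7 counts. These ratios did not overlap between the groups.

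OPTN had 0.901, 1.07 and 1.01 counts per count of NBR1 with DNAJC12 and 0.639, 0.747 and 0.598 with the empty vector, again apart, although the CPM of OPTN overlapped. LAMP1 had 1.83, 1.69 and 1.87 counts per count of ATG13 against 1.56, 1.68 and 1.91, and these ratios overlapped. A ratio shows unequal change of its 2 genes and does not say which of them changed.

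When a trend of log2 CPM on GC content was removed from each library, more genes were called, among the 38 as among all genes. With this correction, 10 of the 38 (26.3%) were called higher, against 10.2% of all genes, and 2 (5.26%) lower, against 9.77%. The genes called higher were MAP1LC3B (1.34), SQSTM1 (0.82), ULK2 (0.86), OPTN (0.65), ULK1 (0.49), TFE3 (0.44), CTSD (0.39), ATG2A (0.35), LAMP2 (0.34) and LAMP1 (0.33), and those called lower ATG4A (-0.93) and TFEB (-0.58).

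With DNAJC12 replicate 2 left out in place of the correction, 8 genes (21.1%) were called higher, against 12.1% of all genes, and 3 (7.89%) lower, against 10.4%. With both libraries numbered 2 left out, 7 genes (18.4%) were called higher, against 10.3%, and 4 (10.5%) lower, against 8.41%. MAP1LC3B, SQSTM1, OPTN, ULK2 and LAMP2 were called higher and TFEB lower in all 3 of these analyses. Of the 3, the correction alone called ULK1, TFE3, CTSD, ATG2A and LAMP1 higher and ATG4A lower. Without DNAJC12 replicate 2, the log2 fold changes of TFE3, CTSD, ATG2A and LAMP1 were 0.12, 0.06, 0.05 and 0.10, with adjusted p from 0.579 to 0.843. Both analyses that left libraries out, and not the correction, called RB1CC1 and ATG2B higher and ATG9A and ATG4D lower. ATG12 (0.58) was called higher without DNAJC12 replicate 2 alone, and GABARAP lower without both libraries numbered 2 alone. The analyses share libraries, so these calls are not independent of each other.

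**Figure D5:**
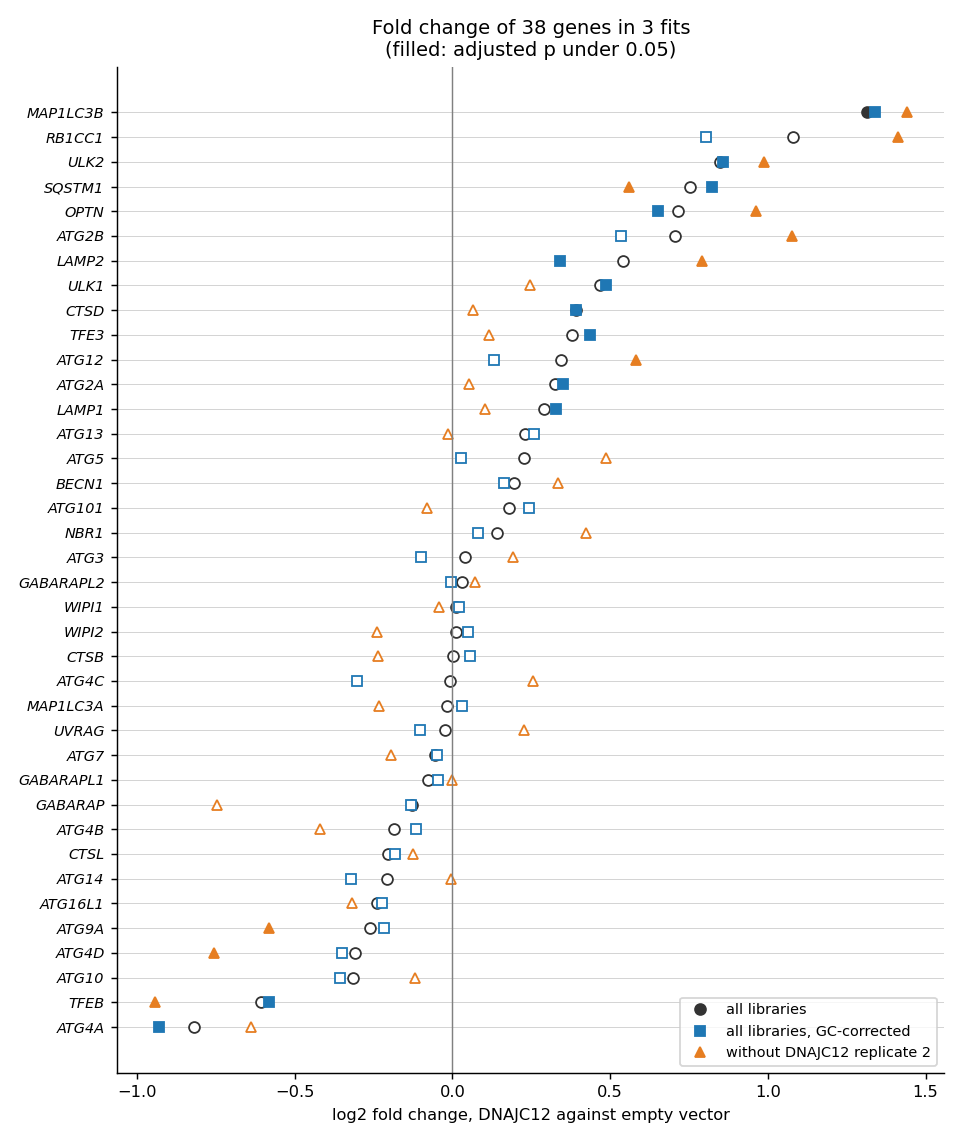
Log2 fold change of the 38 genes, DNAJC12 against empty vector (horizontal axis), with all libraries (circles), with all libraries after GC correction (squares) and without DNAJC12 replicate 2 (triangles); filled symbols have an adjusted p under 0.05. Filled symbols number 1, 12 and 11 in the 3 analyses, and MAP1LC3B is filled in each.

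The wider pathway was read from 6 lists of 160 other genes, of which 158 were tested. In these lists edgeR called 2 genes higher and 0 lower, or 1.27% beside 1.25% of all genes, and the DESeq2 Wald test called 10, or 6.29% beside 3.13%. An unadjusted p under 0.05 was reached by 16 with a positive and 4 with a negative fold change, or 12.7% beside 14.1% of all genes. The fold change was above 0 for 106 genes (67.1%, beside 54.9% of all genes), and the median was 0.13 beside 0.05. Groups did not overlap for 15 genes with a higher and 8 with a lower level, or 14.6% beside 20.1% of all genes. SESN2, a stress-induced sestrin that restrains mTORC1 and so releases autophagy, had 169.6, 247.3 and 181.8 CPM with DNAJC12 and 37.3, 48.1 and 45.7 CPM with the empty vector. The groups were far apart (log2 fold change 2.19, SE 0.231, adjusted p = 0.00315), and the gene was called in all 18 alternatives. LAMP3, a lysosomal membrane protein related to LAMP1, had 6.56, 4.93 and 9.19 CPM against 0.966, 1.5 and 1.23 CPM (2.48, SE 0.347, adjusted p = 0.0117). Its call was lost without DNAJC12 replicate 3 or any of the empty vector libraries (adjusted p from 0.0592 to 0.108). In those analyses 0.168% to 0.275% of all genes were called.

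Of 34 tested regulators of nutrient sensing, edgeR called SESN2, and the DESeq2 Wald test also DDIT4 and RRAGC. DDIT4, another inhibitor of mTORC1, had 213.2, 317.6 and 224.8 CPM with DNAJC12 and 94.7, 151.2 and 131.1 CPM with the empty vector, with groups apart (1.003, SE 0.251, adjusted p = 0.0972 by edgeR and 0.0148 by DESeq2), and was called in 8 of 18 alternatives. RRAGA, a GTPase that recruits mTORC1 to the lysosome, was at -0.15.

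Of 22 tested lysosomal membrane genes, edgeR called LAMP3 and the DESeq2 Wald test also NPC1, while the abundant CD63 and LAPTM4A were at 0.23 and 0.11. Of 43 other hydrolase genes, edgeR called 0 (an unadjusted p under 0.05 was reached by 3 above and 2 below 0) and DESeq2 called CTSO and GM2A, with PSAP, the saposin precursor, at 0.44 and CTSZ at 0.17. Of 17 subunits of the V-ATPase, the proton pump that acidifies the lysosome, 0 were called by edgeR or DESeq2 and 0 reached an unadjusted p under 0.05. ATP6V0E1 was at 0.06 and ATP6V1F at -0.23.

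Of 25 other genes of autophagosome formation and fusion, edgeR called 0 (3 higher at an unadjusted p under 0.05) and DESeq2 called TMEM41B and EPG5, with the fusion genes RAB7A at 0.07 and VAMP8 at -0.11. Of 17 other receptor genes, edgeR called 0 (an unadjusted p under 0.05 was reached by 1 above and 1 below 0) and DESeq2 called BNIP3, with the mitophagy receptors FKBP8 at -0.01 and PHB2 at -0.10. BNIP3, a mitophagy receptor named after its values were seen, had 148, 125 and 140 CPM with DNAJC12 and 276, 251 and 255 CPM with the empty vector, with groups apart (-0.92, SE 0.188, adjusted p = 0.0514 by edgeR and 0.00224 by DESeq2), and was called in 11 of 18 alternatives. Its direction was opposite to that of SQSTM1 and OPTN.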

How the data were processed

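RNA sequencing was analysed in 6 libraries, 3 per group. Per the labels, groups and replicate numbers come from the sample titles. The authors deposited a table of read counts and a table of FPKM, each with 58735 genes. The submitters' processing notes name HISAT2 2.0.5 and hg19. The gene models equal GENCODE 29 on GRCh38 for 58735 of 58735 genes, which differs from hg19, and coordinates here are on GRCh38. The counting program is not given in the sources used here, nor is strandedness, so overlapping genes and near-identical copies are uncertain. Each FPKM equalled the count times 1e+09 over length and a depth of 0.854 to 1.10 times the library total.

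Counts were tested with edgeR 4.0.16 in R 4.3.3 (TMM, filterByExpr with a minimum count of 10 and total of 15, robust quasi-likelihood test), and Benjamini-Hochberg adjustment covered 14520 genes with a threshold of 0.05. SE is the size of the log2 fold change divided by the square root of F. Genes not tested held 0.129% of counts. The common biological coefficient of variation was 26.6%. With 3 libraries in each group an exact permutation p is at least 0.1, and none was run. Only the main edgeR test was tried on simulated counts, which held no GC trend, and the alternatives were not.

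The members, lists and tests were chosen with earlier results of these data known. Values in every library are given for called genes, for genes whose groups do not overlap with a log2 fold change of at least 0.5 in size, and for the most abundant gene of each role group. From each other list, up to 4 called genes, or the 2 most abundant where fewer than 2 are called, are named. OPTN, NBR1, ULK1, RB1CC1, GABARAPL1, TFEB, LAMP1, LAMP2, BNIP3 and the copies and overlapping genes were chosen with their values in view.

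Alternatives were DESeq2 1.42.0 size factors and Wald test, the low-count filter dropped or set to 1 CPM in 3 libraries, library sizes without DNAJC12, a replicate block, a GC correction (loess of log2 CPM on transcript GC content, span 0.3), both together, leaving out libraries, and limma 3.58.1 on log2 FPKM with pseudocounts of 1 and 0.1 (filter 0.5 FPKM in 3 libraries, or none). The pseudocount shrinks fold changes of weakly expressed genes. Start regions came from RefSeq. Python 3.11.15, pandas 2.3.3 and matplotlib 3.10.9 made the tables and figures.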

Additional observations from a re-analysis of the deposited data

How the results depend on the processing

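Of the 38 genes, 1 was called higher and 0 lower with all libraries. It was also 1 and 0 with DESeq2 size factors, the DESeq2 Wald test, no filter and the filter of 1 CPM. The same held with library sizes without DNAJC12 and with limma on filtered FPKM. In these analyses 0.544% to 1.58% of all genes were called higher and 0.641% to 1.54% lower. With GC correction 10 were called higher and 2 lower, without both libraries numbered 2 it was 7 and 4, and with limma on unfiltered FPKM 0 were called higher (MAP1LC3B adjusted p = 0.0804). Leaving out 1 library gave 0 to 8 higher, with the most without DNAJC12 replicate 2, and 0 to 3 lower. The share of all genes moved as well, from 0.101% to 12.1% called higher and from 0.0403% to 10.4% called lower. Of the other genes of the pathway, where 2 were called, 10 were called with the DESeq2 Wald test (6.29% beside 3.13% of all genes). Without a filter it was 8 (5% beside 2.52%), and with GC correction 36 (22.8% beside 20%). Without both libraries numbered 2 it was 31 (19.7% beside 18.7%). With limma on unfiltered FPKM it was 1 (0.625% beside 0.143%). Without 1 library it was 1 to 36, or 0.633% to 22.8%, beside 0.168% to 22.5% of all genes. None of the 38 was called without DNAJC12 replicate 3 or any empty vector library; the cause was not tested.

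Deviations from the group means correlated by 0.448, 0.585 and 0.0335 for replicate numbers 1, 2 and 3. DNAJC12 replicates 1 and 2 each correlated best with the empty vector replicate of the same number. DNAJC12 replicate 3 correlated best with empty vector replicate 1 (0.224). Whether the replicate numbers pair the samples is therefore unclear. With a replicate block, 5 of the 38 were called higher (13.2%, against 6.96% of all genes) and 2 lower (5.26% against 6.38%), and 20 of the others (12.7% against 13.3%). With block and GC correction it was 10 higher (26.3% against 11.7% of all genes) and 3 lower (7.89% against 11.2%). Of the others it was 41 (25.9% against 22.9%). MAP1LC3B, SQSTM1, OPTN and ULK2 were called higher and TFEB lower with the block as with GC correction and without DNAJC12 replicate 2 or both libraries numbered 2.

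Changes of sign in the log2 fold change all concerned genes not called with all libraries. With the block, MAP1LC3A was at 0.0063, WIPI2 at -0.0231 and CTSB at -0.0297. With GC correction, MAP1LC3A was at 0.0304, GABARAPL2 at -0.0031 and ATG3 at -0.1003, and with both at 0.0462, -0.0267 and -0.0919. CTSB was at -0.0028 with the DESeq2 Wald test and -0.0018 with the filter of 1 CPM. Without a filter, WIPI1 was at -0.0158, WIPI2 at -0.0199 and CTSB at -0.0265. Without both libraries numbered 2, ATG101 was at -0.0038, UVRAG at 0.1271, WIPI1 at -0.1138, WIPI2 at -0.192, ATG4C at 0.1959, CTSB at -0.2199 and ATP6V0E1 at -0.0422. With limma on log2 FPKM plus 0.1, MAP1LC3A was at 0.0015, WIPI2 at -0.0305 and CTSB at -0.037, and with 1 added, filtered or not, WIPI2 was at -0.0278 and CTSB at -0.0363. Without 1 library at a time, fold changes that crossed 0 ran from the lower to the higher value for MAP1LC3A -0.284 to 0.1733, GABARAP -0.7468 to 0.2526, GABARAPL1 -0.1775 to 0.0319, GABARAPL2 -0.0771 to 0.0792, NBR1 -0.1768 to 0.422, ATG13 -0.0134 to 0.3777, ATG101 -0.0811 to 0.3701, UVRAG -0.3032 to 0.2257, WIPI1 -0.0753 to 0.0647, WIPI2 -0.2384 to 0.151, ATG3 -0.129 to 0.1915, ATG4C -0.3103 to 0.255, ATG5 -0.1042 to 0.5913, ATG7 -0.1943 to 0.018, CTSB -0.2353 to 0.1366, VAMP8 -0.3219 to 0.0199, FKBP8 -0.3136 to 0.1858, PHB2 -0.361 to 0.0492, ATP6V0E1 -0.0192 to 0.1035.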

Other observations

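In the other lists, groups were apart for 14.6% of the tested genes, beside 20.1% of all genes. Among these, NPC1, GM2A and EPG5 did not pass the adjusted edgeR test, while the DESeq2 Wald test called them. The 3 were named after their values were seen and differ in direction. NPC1, which exports cholesterol from lysosomes, had 201.3, 226.8 and 203.9 CPM with DNAJC12 and 122.4, 117.8 and 131.9 CPM with the empty vector, a log2 fold change of 0.76 (SE 0.186, adjusted p = 0.0893 by edgeR and 0.0263 by DESeq2). GM2A, the activator of ganglioside breakdown, had 32.3, 45.1 and 29.2 CPM against 74.0, 65.5 and 68.5 CPM, a log2 fold change of -0.97 (SE 0.225, adjusted p = 0.077 by edgeR and 0.00975 by DESeq2). EPG5, a tether of autophagosomes to lysosomes, had 81.0, 40.9 and 58.9 CPM against 30.3, 25.5 and 31.1 CPM, a log2 fold change of 1.06 (SE 0.270, adjusted p = 0.102 by edgeR and 0.0131 by DESeq2). For each of these genes the DNAJC12 libraries were all on the same side of the empty vector libraries. NPC1 was called in 6, GM2A in 7 and EPG5 in 7 of the 18 alternatives.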
